A study of Homo sapiens with 3 samples.

Results

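The genes described here are 40 genes of G2 phase and mitosis, named in a list of genes for what their proteins do, out of 19775 genes measured. No measured value enters the list's rule, though the list was made with earlier results of these data known. The platform annotation gives most probe sets 1 gene symbol, and the brightest of these (by mean log2 signal over the 3 arrays) stood for its gene. All 40 genes had such a probe set. The measured material was total RNA from 3 cultures labelled HepG2, a human liver tumour line. The tested cultures were stably transfected with an Hsp27 ORF (open reading frame) vector or with an Hsp27 shRNA vector. The remaining culture carried a control vector. Each group was 1 array, the labels name no clone and no second culture, and all 3 were grown in the same serum-supplemented medium, so no value below has a replicate check and no p-value is given.

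Cells that enter mitosis switch on a shared set of genes late in the cycle. Cyclin B and the kinase CDK1 start mitosis, Polo and Aurora kinases build the spindle, kinetochore and checkpoint proteins hold back anaphase until chromosomes are attached, and the anaphase-promoting complex (APC/C) then destroys cyclin B and securin. Promoters of many such genes are known to carry a cell cycle gene homology region (CHR), bound by the DREAM and MYB-MuvB complexes, next to CCAAT boxes bound by NF-Y. In a growing culture the RNA level of these genes follows the share of cells in G2 and mitosis. In bulk RNA, fewer such cells and less RNA of a gene per cell cannot be told apart.

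The promoter windows are shown first because they are a feature the genes share that their choice by name did not use. RefSeq windows of GRCh38.p14, 250 bases before to 50 after the start, were found for 33 of the 40 genes. CHR letters were searched as TTTGAA or TTTAAA and CCAAT boxes as CCAAT, each on both strands. Matches of the 2 motifs that overlapped at their ends were counted for both. Of the 33 genes, 28 (84.8%) held CHR letters in at least 1 window, against 27.9% of the 27305 genes in the table and 21.4% of the 10278 genes that were also above the signal floor defined below. CCAAT was found for 26 of the 33 genes (78.8%), against 39.7% of the genes in the table, and 18 (54.5%) had at least 2 matches in a window, against 12.9%. Both kinds stood in the same window for 22 genes (66.7%), against 11.2%. In 24 genes the CHR letters began within 50 bases of the start, a count for which no share over other genes was computed. A match to such short letters is a description and not a shown binding site.

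Promoters of 6 genes follow, of the 3 genes with the largest differences between arrays, of 2 that stood higher on the array labelled shRNA, and of cyclin B1, whose brightest probe set hardly differed. They are printed from 250 bases before to 30 after the start, with CHR letters and CCAAT boxes of either strand in capitals. The windows lie at chr5:138178862-138179141 (plus strand) for KIF20A, chr5:138331775-138332054 (minus strand) for CDC25C, chr11:62123761-62124040 (plus strand) for INCENP, chr10:92592880-92593159 (plus strand) for KIF11, chr4:120066819-120067098 (minus strand) for MAD2L1 and chr5:69166900-69167179 (plus strand) for CCNB1. CDC25C has 4 windows in the table, of which 2 hold CHR letters.
KIF20A: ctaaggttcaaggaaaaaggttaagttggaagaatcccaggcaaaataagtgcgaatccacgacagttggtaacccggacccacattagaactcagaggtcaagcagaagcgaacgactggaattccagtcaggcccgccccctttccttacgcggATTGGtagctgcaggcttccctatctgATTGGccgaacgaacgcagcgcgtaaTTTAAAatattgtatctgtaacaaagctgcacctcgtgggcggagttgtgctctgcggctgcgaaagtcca
CDC25C: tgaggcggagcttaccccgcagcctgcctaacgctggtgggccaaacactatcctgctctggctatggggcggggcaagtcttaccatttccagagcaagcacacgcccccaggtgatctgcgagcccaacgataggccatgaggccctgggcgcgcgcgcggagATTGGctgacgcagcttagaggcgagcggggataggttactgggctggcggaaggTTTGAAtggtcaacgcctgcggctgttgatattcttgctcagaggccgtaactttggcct
INCENP: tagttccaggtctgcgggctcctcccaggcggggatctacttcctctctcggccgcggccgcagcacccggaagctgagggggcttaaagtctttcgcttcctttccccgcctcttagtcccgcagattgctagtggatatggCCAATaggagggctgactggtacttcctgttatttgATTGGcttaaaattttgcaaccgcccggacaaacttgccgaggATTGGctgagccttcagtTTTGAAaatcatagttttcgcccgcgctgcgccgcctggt
KIF11: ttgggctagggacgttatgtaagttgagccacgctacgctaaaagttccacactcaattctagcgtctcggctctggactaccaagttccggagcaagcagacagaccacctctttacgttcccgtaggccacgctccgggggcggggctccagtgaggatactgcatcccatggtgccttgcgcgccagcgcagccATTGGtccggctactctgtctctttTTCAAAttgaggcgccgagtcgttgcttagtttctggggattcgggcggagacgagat
MAD2L1: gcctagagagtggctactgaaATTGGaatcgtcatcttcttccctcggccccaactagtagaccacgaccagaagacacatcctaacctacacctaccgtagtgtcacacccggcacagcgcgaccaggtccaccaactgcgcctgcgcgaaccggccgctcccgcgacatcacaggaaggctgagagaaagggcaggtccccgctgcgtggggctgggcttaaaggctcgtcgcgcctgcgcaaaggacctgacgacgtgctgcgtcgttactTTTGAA
CCNB1: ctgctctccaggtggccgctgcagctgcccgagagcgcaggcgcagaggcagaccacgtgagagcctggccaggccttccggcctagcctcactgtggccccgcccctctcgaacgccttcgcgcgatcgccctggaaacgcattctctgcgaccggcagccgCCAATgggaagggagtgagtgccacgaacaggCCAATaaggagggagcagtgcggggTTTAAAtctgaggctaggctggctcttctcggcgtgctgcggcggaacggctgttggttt
A window was printed only where it held CHR letters, so their presence in all 6 was fixed by that choice. All 6 windows also hold a CCAAT box, whichever way the gene differed. The median log2 ratio of the 28 genes with CHR letters was -0.08 for ORF against control and -0.08 for shRNA against control. For the 5 genes without them it was -0.04 and 0.01. The split by CCAAT went the other way: -0.07 and -0.07 for the 26 genes with it, -0.15 and -0.07 for the 7 without. A link between these letters and the ratios was not tested.

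**Figure D1:**
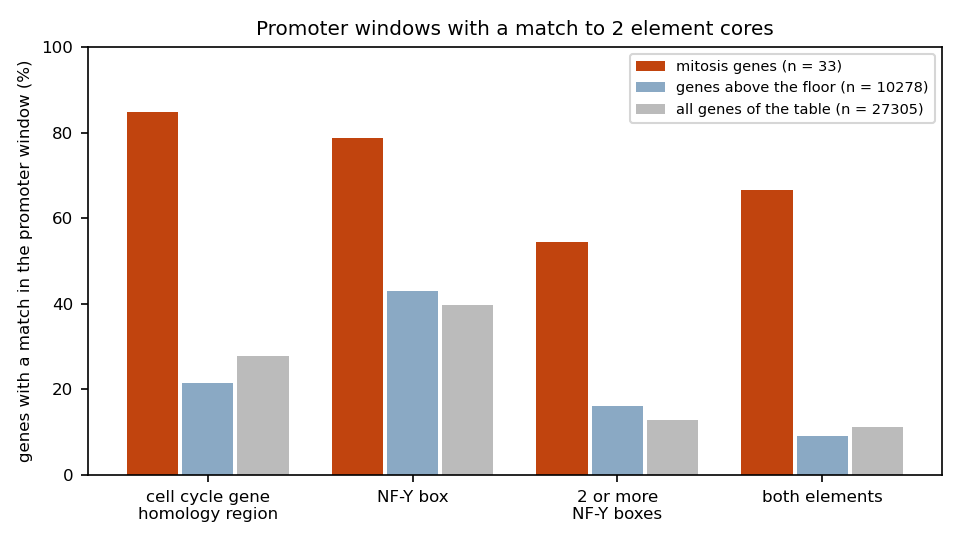
Share of genes, in percent, whose promoter window holds a match to the CHR core, to the NF-Y box (CCAAT), to at least 2 NF-Y boxes, or to both elements in 1 window; bars are mitosis genes, genes above the floor and all genes of the table. Of 33 mitosis genes 84.8% hold the CHR core and 66.7% both elements, against 27.9% and 11.2% of the 27305 genes of the promoter table.

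Values below are MAS5 signals on the log2 scale, deposited 1 per probe set. Signals under the pooled median of all probe sets (5.93, a linear signal of 60.8) were raised to that floor before arrays were compared as log2 ratios, and 12664 genes exceeded it on at least 1 array. The targeted gene comes first as a check of the labels. HSPB1, which encodes Hsp27, read 13.11 for the culture labelled ORF, 13.03 for that labelled shRNA and 13.25 for that labelled control. Its log2 ratio to control was -0.14 for ORF (noise SD 0.0796) and -0.22 for shRNA (noise SD 0.0987). Signal was thus highest for control, against the label of the ORF culture, and the shRNA culture was 1.16-fold below control. Every direction below rests on those labels. The noise SD is an estimate of technical spread, made from 6768 probe set pairs that share a gene. It leaves out all variation between cultures. Among hepatocyte markers, 2 of 8 exceeded the floor and 0 reached the 75th percentile of the pooled signals (8.63). ALB (albumin) read 4.68, 4.88 and 4.27 on the arrays labelled ORF, shRNA and control, below the floor throughout, and the cells are called HepG2 by their label only. Of 4 leukocyte markers 1 exceeded the floor, and of 3 endothelial markers 2 did. Fibroblast and stellate cell markers exceeded the floor in 5 of 5 genes. Their linear signals summed to 10365 on ORF, 12858 on shRNA and 12359 on control, and 0 of them stood at 0. LUM, by far the brightest, made up most of this sum. It read 13.03, 13.35 and 13.30, with log2 ratios of -0.27 and 0.05 for ORF and shRNA against control (noise SD 0.0796 and 0.0987). A second LUM probe set gave -0.26 and 0.11. PDGFRB exceeded the floor on ORF only, at 6.02. Single markers differed more than the sum: the collagen gene COL1A1 read 9.97, 10.62 and 9.82, 1.74-fold higher on shRNA than on control, and the proteoglycan gene DCN read 9.67, 9.23 and 10.14, 1.38-fold lower on ORF and 1.87-fold lower on shRNA. The part of such cells in the differences below was not tested.

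Mitosis genes were strongly expressed on all 3 arrays and differed little between them. Of the 40 genes, 39 had a mean signal at or above the 75th percentile, as had 39.7% of all genes, and INCENP was the exception. The gap between a gene's highest and lowest array was under 0.2 on the log2 scale for 24 genes and under 0.5 for 37. INCENP, KIF20A and CDC25C were the other 3.

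On the array labelled ORF, 31 of the 40 genes read below the array labelled control, with a median log2 ratio of -0.08. Below 0 lay 49.4% of all genes above the floor. Among the 2012 genes whose mean signal fell in the central 50% of these 40 (11.12 to 12.60), 51.9% did, with a median of -0.006. The noise SD of 1 gene in this comparison had a median of 0.103 over the 40. At least 1.5-fold lower was 1 gene, INCENP, and 0 were at least 1.5-fold higher, where 2.82% and 3.04% of the genes above the floor passed these limits, and 0.447% and 0.497% of genes of like signal.

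On the array labelled shRNA, 26 of the 40 read below control, with a median of -0.07. The background was 51.1% of genes above the floor and 51.6% of genes of like signal, whose median was -0.006. At least 1.5-fold lower were 3 genes (INCENP, KIF20A and CDC25C), and 0 were as much higher, against 3.3% and 3.59% of genes above the floor and 0.895% and 0.746% of genes of like signal. Both comparisons use the same control array, so their shared direction is not independent. Set against each other without the control, the arrays labelled ORF and shRNA gave a result that depends on scaling. On the ORF array 21 of 40 genes read lower than on the shRNA array, against 46.8% of genes above the floor and 49.6% of genes of like signal, and the median was -0.02. With arrays scaled to equal medians the count was 30 of 40 and the median -0.09. INCENP alone was at least 1.5-fold higher with ORF and 0 genes were as much lower, where 2.64% and 2.68% of genes above the floor passed, and 0.497% and 0.447% of genes of like signal.

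**Figure D2:**
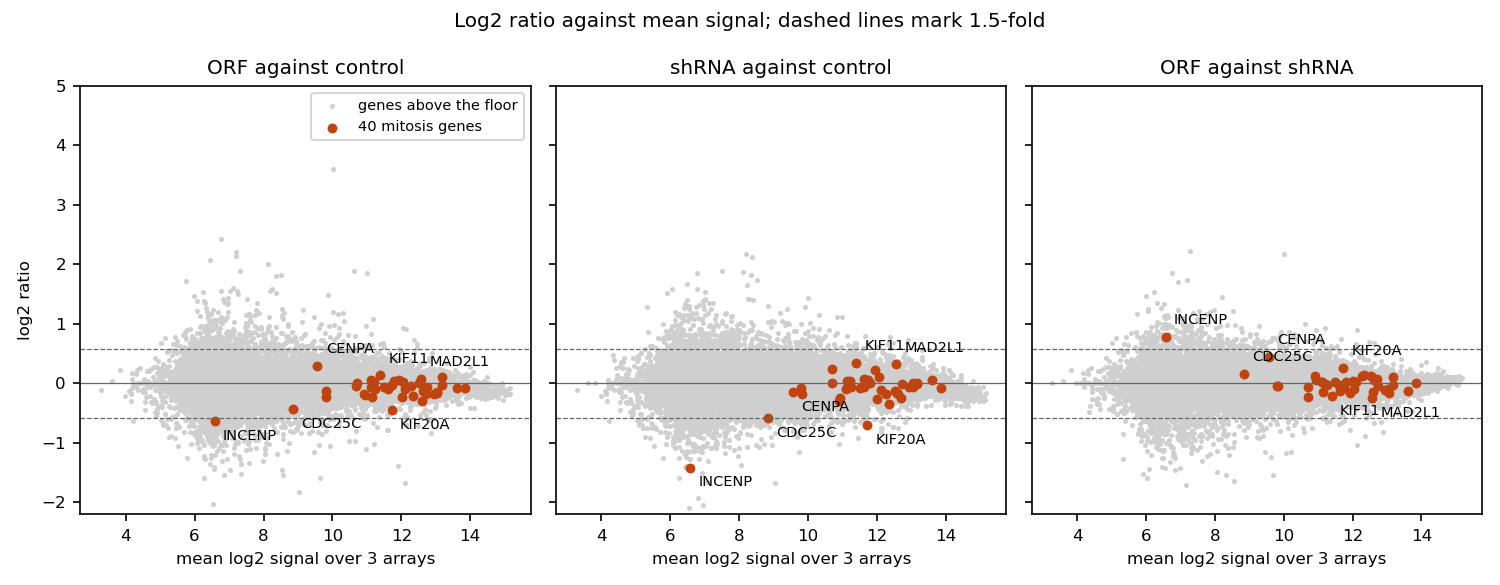
Log2 ratio of each gene (vertical axis) against its mean log2 signal over the 3 arrays (horizontal axis) for the 3 comparisons, with genes above the floor in grey, the 40 mitosis genes in red and 1.5-fold as dashed lines. The mitosis genes lie near 0 at high signal, and INCENP, CDC25C and KIF20A stand lowest in both comparisons with control.

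Among CDK1 and its partners, CDC25C differed most and FOXM1 less, while CDK1 and the brightest cyclin B1 probe set differed little. CDK1, the kinase that drives entry into mitosis, read 13.54 on the array labelled ORF, 13.68 on shRNA and 13.62 on control. Its partner cyclin B1 (CCNB1) read 13.16, 13.18 and 13.19 in the same order. These are gaps of 0.14 and 0.03 between the highest and lowest array. A second bright CCNB1 probe set read 11.65, 11.93 and 11.59, a log2 ratio of 0.33 for shRNA against control (noise SD 0.147), so the readings of this gene disagree. CCNA2, the cyclin of S phase and G2, read 12.03 on ORF, 12.12 on shRNA and 12.01 on control. CCNB2, the second B-type cyclin, read 12.30, 12.17 and 12.35, with a log2 ratio of -0.18 for shRNA against control (noise SD 0.118). CDC25C, the phosphatase that activates CDK1, read 8.76 on ORF, 8.60 on shRNA and 9.18 on control, a log2 ratio of -0.43 for ORF against control (noise SD 0.208) and -0.59 for shRNA against control (noise SD 0.247). Both transfected cultures thus read below control, and the shRNA value lay just past the 1.5-fold limit of 0.585. A dimmer second probe set of CDC25C gave -0.30 for ORF against control and 0.05 for shRNA against control. The shRNA call rests on 1 probe set at the limit, and after quantile normalization it was missed (-0.58). FOXM1, the transcription factor that switches on many G2 genes, read 10.89, 10.83 and 11.09 on ORF, shRNA and control, with log2 ratios to control of -0.20 and -0.26 (noise SD 0.127 and 0.147).

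The kinases PLK1, AURKA and NEK2 read lower on the arrays labelled ORF and shRNA than on control by small amounts. PLK1, needed for spindle poles and mitotic entry, read 9.75 on ORF, 9.80 on shRNA and 9.87 on control. NEK2, which helps centrosomes separate, read 12.08, 12.05 and 12.18. AURKA, the spindle pole kinase, showed the largest gap of the 3, with 12.45, 12.59 and 12.75. Its log2 ratio was -0.30 for ORF against control (noise SD 0.092) and -0.16 for shRNA against control (noise SD 0.118), and its 2 other probe sets above the floor were negative in both comparisons.

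The chromosomal passenger complex, which corrects faulty attachments and guides cytokinesis, was uneven. Its kinase AURKB read 10.66 on ORF, 10.72 on shRNA and 10.71 on control. Survivin (BIRC5) read 11.71, 11.79 and 11.73, so both subunits were level. Borealin (CDCA8) read 10.89, 10.76 and 11.07, with ratios of -0.18 and -0.31 for ORF and shRNA against control (noise SD 0.127 and 0.147). INCENP, the scaffold that binds the other 3, read 6.71 on ORF, 5.69 on shRNA and 7.34 on control, the widest spread of all 40 genes. It was 1.56-fold lower on ORF than on control. On shRNA it was below the floor, which makes the 2.67-fold difference from control (log2 ratio -1.42) depend on where the floor is set. Its single probe set with 1 symbol was dim, with noise SDs of 0.376 and 0.408, and no second probe set was at hand to compare.

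Spindle checkpoint genes had small ratios in both directions. By the probe sets used, 4 of the 5 genes read above control on ORF and 4 on shRNA, most of them by less than their noise SD. BUB1 read 11.82 on ORF, 11.79 on shRNA and 11.79 on control, and the checkpoint kinase TTK read 11.21, 11.23 and 11.19. BUB3, the adaptor of the BUB kinases, read 13.24, 13.14 and 13.13 by a probe set that can match several transcripts. Its 5 other probe sets above the floor were all below control on ORF, and a bright one, at 12.54, 12.36 and 12.69, had log2 ratios of -0.15 and -0.33 for ORF and shRNA against control (noise SD 0.0916 and 0.118). The direction for BUB3 is therefore not settled. MAD2L1 (MAD2), which holds CDC20 inactive, read 12.51, 12.75 and 12.44, a log2 ratio of 0.32 for shRNA against control (noise SD 0.118). A second bright probe set of MAD2L1 gave -0.02 and a dimmer one 0.20, so its probe sets did not share the difference. BUB1B (BUBR1), which inhibits the APC/C with MAD2, was the one gene of the group below control, with 12.67, 12.60 and 12.85.

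Centromere and kinetochore genes varied more. CENPF, a large kinetochore protein of G2 and mitosis, read 12.32 on ORF, 12.18 on shRNA and 12.53 on control, with ratios to control of -0.21 and -0.34. Its second probe set gave -0.03 and 0.09, so the difference was seen in 1 probe set. CENPE, the kinesin that moves chromosomes to the metaphase plate, read 9.73, 9.78 and 9.96. CENPA, the histone that marks centromeres, read 9.81 on ORF, 9.37 on shRNA and 9.52 on control, the highest log2 ratio of the 40 for ORF against control at 0.30 (noise SD 0.188). A brighter probe set annotated to CENPA and SLC35F6 together read 11.34, 11.32 and 11.49, which is the opposite direction for ORF. NDC80 and NUF2, partners in the complex that grips microtubules, read 11.21, 11.24 and 11.30, and 11.16, 11.13 and 11.10.

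The 3 anaphase genes were below control on both transfected arrays. CDC20, which activates the APC/C, read 11.94 on ORF, 11.91 on shRNA and 12.17 on control, with log2 ratios of -0.23 and -0.26 (noise SD 0.092 and 0.118). UBE2C, the APC/C's ubiquitin-conjugating enzyme, read 12.59, 12.54 and 12.72. Securin (PTTG1), the inhibitor of separase, read 13.83, 13.82 and 13.90. CDC20 thus differed by more than its noise SD, and PTTG1 by less in both comparisons.

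Among spindle motors and microtubule proteins, KIF11 stood apart. This kinesin, which pushes spindle poles apart, read 11.37 on ORF, 11.58 on shRNA and 11.23 on control. Its log2 ratio of 0.35 for shRNA against control (noise SD 0.147) was the highest of the 40 genes, and ORF against control gave 0.14. The other 7 genes of the group were below control on ORF, with ratios from -0.06 for KIF2C, a microtubule depolymerase, to -0.22 for CKAP2. TPX2, the activator of AURKA, read 12.84, 12.96 and 13.03 on ORF, shRNA and control. ASPM, a spindle pole protein, read 12.96, 13.05 and 13.12. Both were lowest on the ORF array, as were KIF4A, HMMR and CKAP2. HMMR read 11.56 on ORF, 11.70 on shRNA and 11.63 on control, and DLGAP5 read 11.09, 11.06 and 11.16.

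Midzone and cytokinesis genes held the clearest single difference. KIF20A (MKLP2), the kinesin that carries the passenger complex to the spindle midzone, read 11.66 on ORF, 11.40 on shRNA and 12.10 on control. KIF20A had log2 ratios of -0.45 (ORF against control, noise SD 0.116) and -0.70 (shRNA against control, noise SD 0.147), or 1.36-fold and 1.63-fold lower. Among the 2012 genes of like signal, 0.447% were at least 1.5-fold lower on ORF and 0.895% on shRNA. KIF20A has 1 probe set with 1 symbol, so no second reading was available. Other genes of the group differed less. KIF23 (MKLP1), the motor of centralspindlin, read 10.62 on ORF, 10.86 on shRNA and 10.62 on control. ECT2, the activator of RhoA at the cleavage furrow, read 11.90, 12.07 and 11.85, so both were highest on shRNA. PRC1, which bundles midzone microtubules, read 12.70, 12.75 and 12.77, and anillin (ANLN) read 12.95, 13.10 and 13.09. TOP2A, the topoisomerase that untangles sister chromatids, read 12.57 on ORF, 12.44 on shRNA and 12.57 on control. Its log2 ratio for shRNA against control was -0.12 (noise SD 0.118). A second bright TOP2A probe set read 11.49, 11.19 and 11.60, a larger ratio of -0.41 in the same direction (noise SD 0.147).

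**Figure D3:**
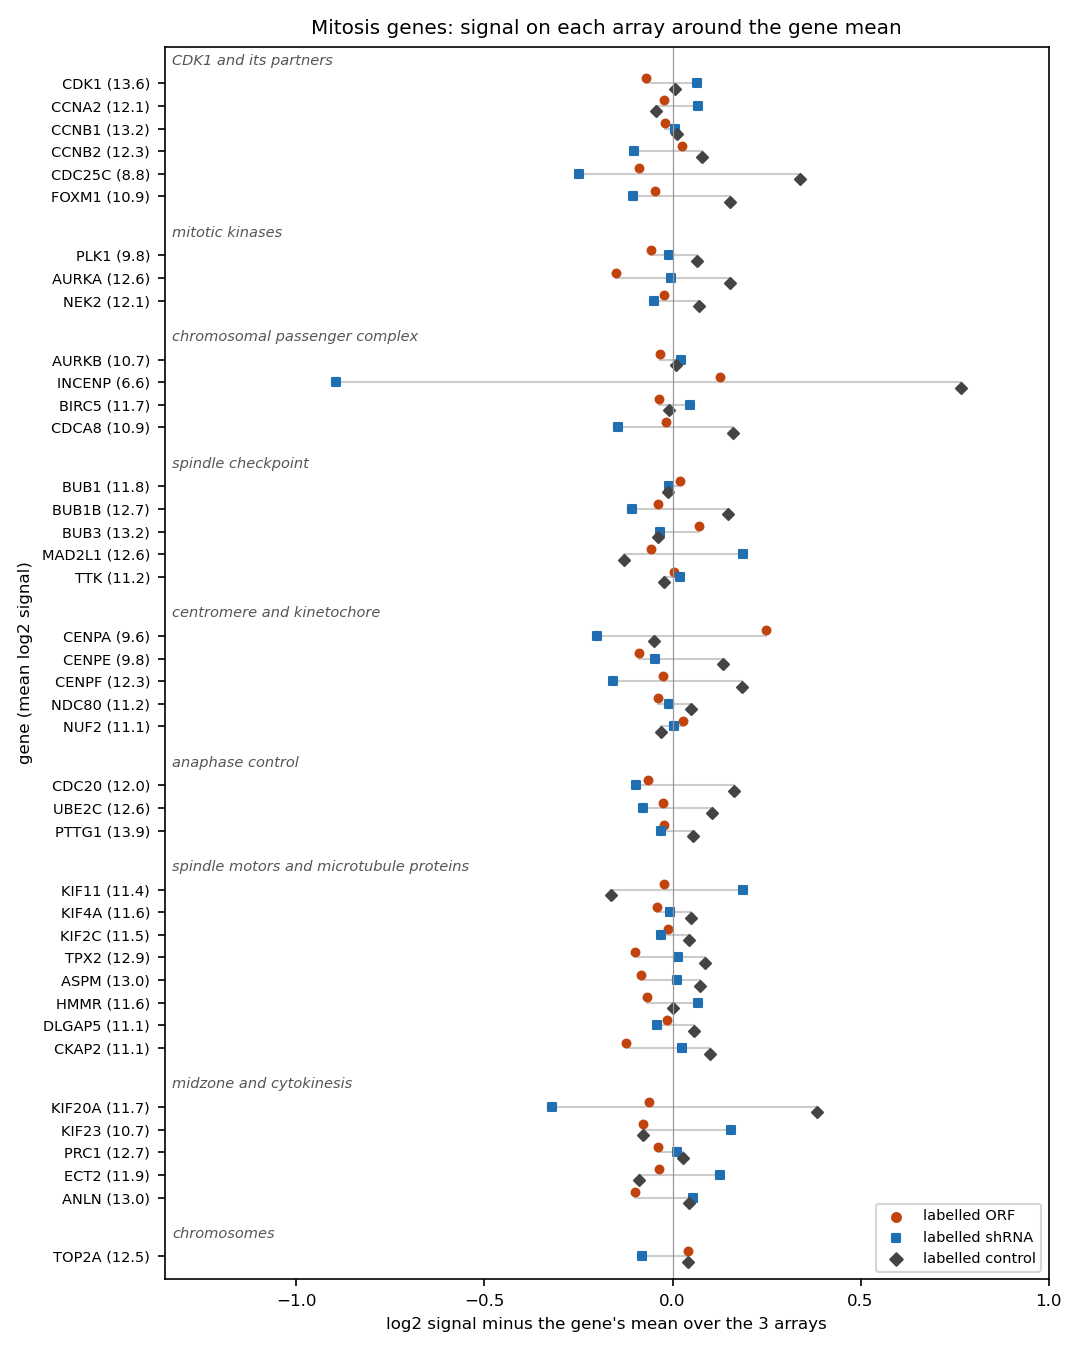
Log2 signal on the arrays labelled ORF, shRNA and control (circles, squares, diamonds; 1 array each), minus the gene's mean over the 3 arrays, for the 40 genes by role; the mean stands in brackets and symbols are shifted vertically for clarity. INCENP, KIF20A and CDC25C spread by 0.5 or more, and control stands highest in each of the 3.

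Directly between the arrays labelled ORF and shRNA, INCENP (log2 ratio 0.78, noise SD 0.416), CENPA (0.45, noise SD 0.193) and KIF20A (0.26, noise SD 0.123) were highest with ORF. Lowest with ORF were MAD2L1 (-0.25, noise SD 0.109), KIF23 (-0.23, noise SD 0.133), KIF11 (-0.21, noise SD 0.123), ECT2 (-0.16, noise SD 0.109) and ANLN (-0.16, noise SD 0.068). Apart from INCENP, none of the 40 genes reached 1.5-fold in this comparison by the probe sets used. A dim second probe set of CKAP2 did (-0.70, noise SD 0.404).

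Other genes of the cycle were read from fixed lists for comparison. Of 79 other mitosis genes above the floor, 51 were below control on ORF (median -0.06) and 47 on shRNA (median -0.08). By the probe sets used, at least 1.5-fold lower was KIFC1, a spindle-focusing kinesin, in both comparisons. It read 9.42 on ORF, 9.41 on shRNA and 10.05 on control. CENPH, a kinetochore protein, read 11.41, 11.05 and 10.45 and was at least 1.5-fold higher in both. KIFC1 and CENPH have 1 probe set each, ending in _s_at and _x_at. MASTL (Greatwall kinase) read 9.48, 9.74 and 8.99 and passed 1.5-fold on shRNA. Some probe sets not used also passed, in both directions. For ORF and shRNA against control, a GAS2L3 probe set gave -0.78 and -0.64 (noise SD 0.293 and 0.324), where the probe set used gave -0.37 and 0.06. A CDC25A probe set gave 0.65 and 0.75 (noise SD 0.322 and 0.378), where the probe set used gave 0.13 and 0.20. The proliferation marker MKI67 read 10.10, 9.88 and 10.34, a log2 ratio of -0.46 for shRNA against control (noise SD 0.187). Its other probe sets gave -0.04, -0.09 and -0.21, each within its noise SD (0.208, 0.187 and 0.217). These medians are close to those of the 40, with a few larger differences in both directions.

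The 43 DNA replication genes above the floor had medians of 0.01 for ORF against control and 0.03 for shRNA against control, with 16 and 21 below 0. By the probe sets used, none of them passed 1.5-fold in either direction. Some other probe sets of these genes did, in both directions. Among them were a probe set of MCM10 (0.64 for ORF against control, noise SD 0.188) and a probe set of CHAF1A (-0.64 for shRNA against control, noise SD 0.240). The 17 condensin and cohesin genes had medians of 0.003 and 0.002, with 8 of 17 below 0 in each. The 15 APC/C subunits and regulators had medians of -0.03 and -0.07, with 11 below 0 on ORF and 12 on shRNA. CDC27, an APC/C subunit, read 11.47 on ORF, 10.95 on shRNA and 11.48 on control, but a second bright probe set read 11.20, 11.33 and 10.96. FBXO5 (EMI1), an APC/C inhibitor, read 10.80, 11.17 and 10.79, and its second probe set 10.05, 9.95 and 10.17. In both genes the probe sets thus disagree on shRNA against control, and neither reached 1.5-fold.

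Regulators of CHR promoters differed in both directions. By the probe sets used, the 17 DREAM, MYB-MuvB and NF-Y genes had medians of 0.01 for ORF against control and 0.03 for shRNA against control. None of them passed 1.5-fold by these probe sets, but some other probe sets did. For E2F4 another probe set read 8.46, 8.57 and 7.47, with ratios of 0.99 and 1.11 (noise SD 0.269 and 0.308), against 0.20 and 0.22 for the probe set used. Others passed for RBBP4 (0.67 for ORF against control), NFYB (0.77 for shRNA against control) and NFYA (-0.83 for shRNA against control). LIN9, a MuvB subunit, read 9.11 on ORF, 9.32 on shRNA and 8.77 on control. MYBL1, a MYB family factor, read 9.75, 10.13 and 10.32, a log2 ratio of -0.57 for ORF against control (noise SD 0.150). Its dim second probe set did not share this (0.33). For shRNA against control the probe set used gave -0.19 and the dim one -0.92 (noise SD 0.187 and 0.408). The dim one read 5.62 on shRNA, below the floor, so its ratio depends on where the floor is set. NFYA read 10.57, 10.33 and 10.72. MYBL2 (B-MYB), the MYB factor of G2 genes, read 10.73, 10.90 and 10.72. Of 12 genes for G1 cyclins and kinases, E2F1, which activates S phase genes, read 8.25 on ORF, 8.94 on shRNA and 7.97 on control, a log2 ratio of 0.98 for shRNA against control (noise SD 0.272). A second E2F1 probe set read 7.90, 7.89 and 8.01, a ratio of -0.12 (noise SD 0.306), so the difference was seen in 1 of 2. The CDK inhibitor CDKN1A (p21) read 8.14, 8.51 and 8.23, and CDKN1C (p57) read 12.79, 12.66 and 13.06. By the probe sets used, none of the 6 CDK inhibitors above the floor reached 1.5-fold. Other CDKN1C probe sets, all ending in _x_at, were also below control on both arrays. For shRNA against control they gave -0.61, -0.61 and -0.20 (noise SD 0.158, 0.147 and 0.147), so some passed 1.5-fold.

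**Figure D4:**
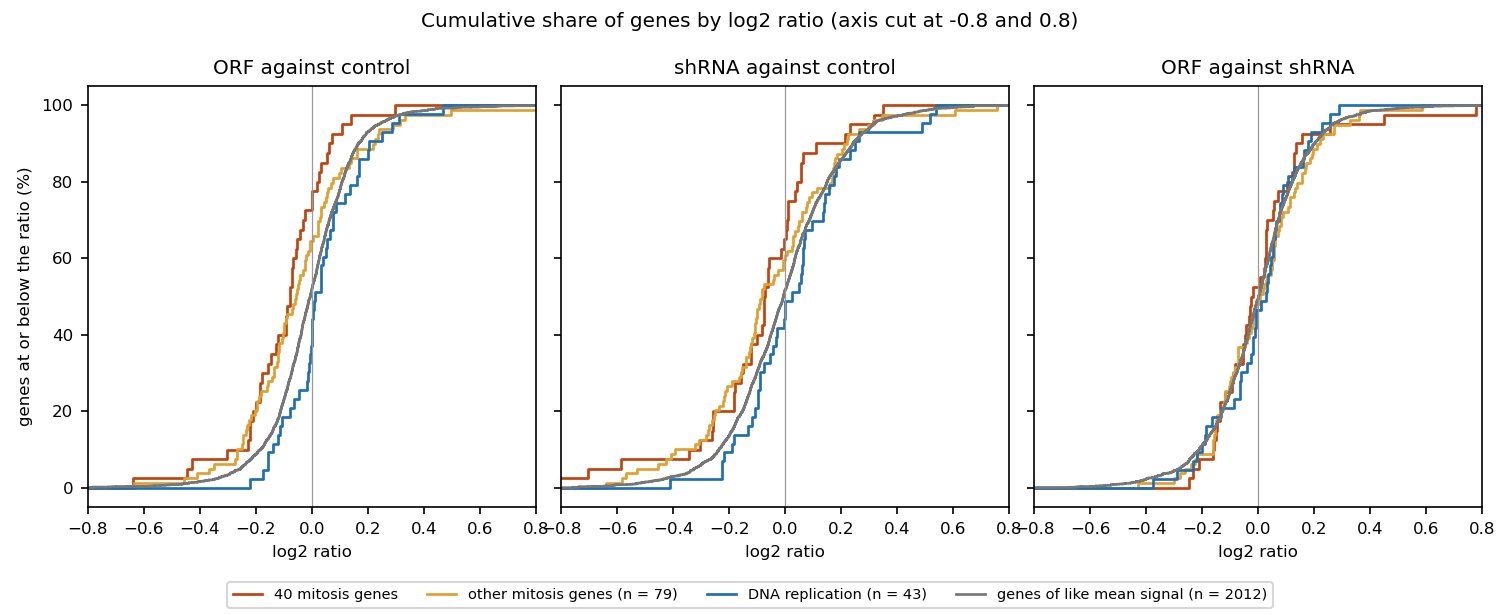
Cumulative share of genes, in percent, at or below each log2 ratio for the 40 mitosis genes, 79 other mitosis genes, 43 DNA replication genes and 2012 genes of like mean signal in the 3 comparisons. Against control the curves of both mitosis sets lie to the left of the grey curve through most of their range (medians -0.08 and -0.06 for ORF), and for ORF against shRNA the curves overlap. The axis ends at -0.8 and 0.8, so INCENP's shRNA ratio of -1.42 lies outside it.

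Genes with several probe sets give the only second reading of a difference. Beside the 40 probe sets used, 33 others of these genes exceeded the floor, spread over 21 genes. They had the sign of the probe set used in 14 of 33 cases for ORF against control, in 21 for shRNA against control and in 13 for ORF against shRNA. Among the 21 genes, all other probe sets shared the sign in 11 genes for ORF against control and in 11 for shRNA against control. The 19 others with a mean signal at or above the 75th percentile had medians of -0.03 and -0.004 for ORF and shRNA against control. The 14 dimmer ones had medians of 0.05 and 0.17.

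**Figure D5:**
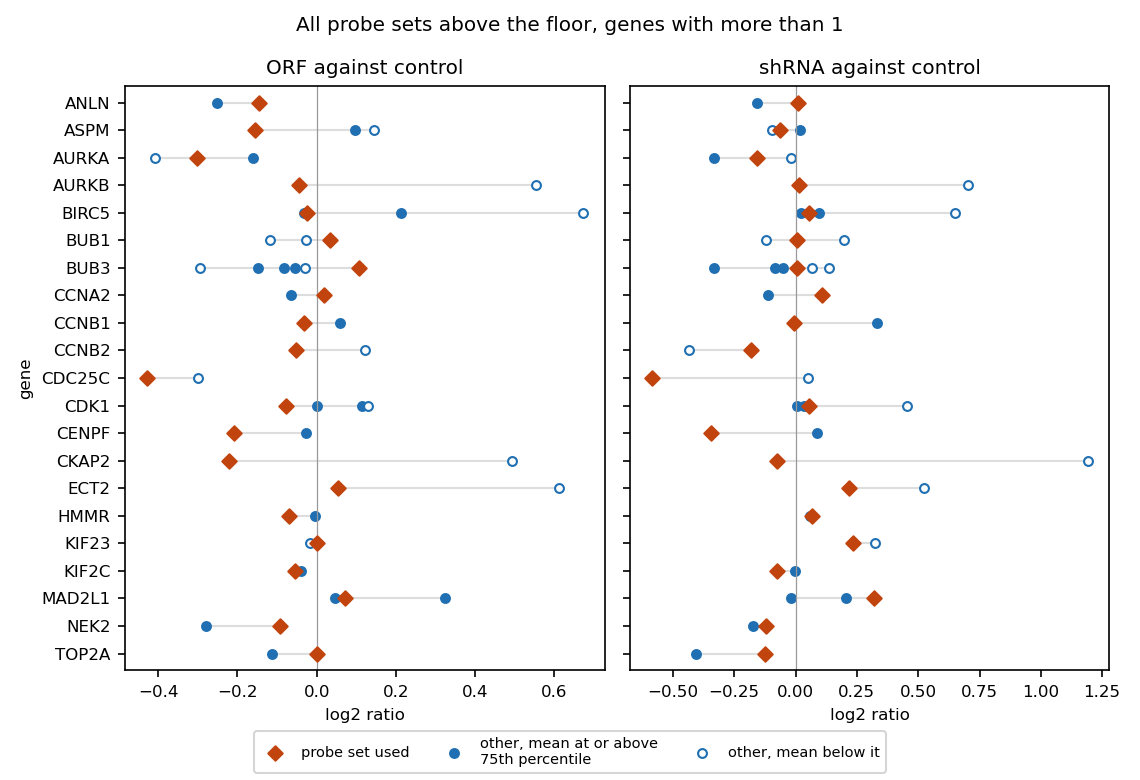
Log2 ratio of every probe set above the floor for the 21 mitosis genes with more than 1, for ORF and shRNA against control (the horizontal scales differ), with the probe set used as a red diamond, brighter others filled and dimmer others open. Dim probe sets of CKAP2, AURKB, BIRC5 and ECT2 lie far to the right of the probe set used.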

How the data were processed

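Total RNA from 3 cultures was amplified to biotinylated cRNA with a 3′ IVT kit, per the labels' protocols, and each culture went on 1 array. The authors deposited log2 signals of 54675 probe sets, made with MAS5 per the submitters' processing notes. For its version and scaling, the sources used here give nothing. The values themselves show the log2 scale, as the linear 2% trimmed mean was 500.1 on each array. Samples were grouped by the transfection label. Of 41097 probe sets with 1 symbol in the platform annotation, 41043 matched RefSeq's gene table (GRCh38.p14), and 0 symbols changed. Those with several symbols (1801) or none (11777) did not enter. Each array was scaled to an equal 2% trimmed mean, signals were raised to the pooled median, and log2 ratios were taken for 3 comparisons with Python 3.11.15, numpy 2.4.6 and pandas 2.3.3. The noise SD is the scaled median absolute difference between the ratios of probe sets of 1 gene (means less than 1 apart) divided by the square root of 2, in 20 bins of signal. With 1 array per group no test was possible, so precision is limited by the number of arrays. The calculation was tested on simulated data. The genes and lists were chosen with earlier results of these data known. Named genes were all 40, described in full where they differed by 1.5-fold, stood among the 6 highest or lowest of a comparison, or were core mitotic regulators, and from each other list those past 1.5-fold or at an end. The genes of like signal, the promoters printed, MKI67, MYBL2, COL1A1, DCN and KIF20A's neighbours were chosen after values were seen. Alternatives were quantile normalization, loess centring (statsmodels 0.14.6), equal medians, no floor, the 75th percentile as floor, a gene's median over its probe sets, leaving out _x_at and _s_at probe sets (which can match several transcripts) and other fold limits. Protein sequence motifs were planned and not analysed here.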

Additional observations from a re-analysis of the deposited data

Results flagged for a closer look

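Some probe sets of these genes were not used in the comparisons because a brighter one stood for the gene, and 4 of them read at least 1.5-fold above the array labelled control. The dim CKAP2 probe set had a log2 ratio of 1.19 for shRNA against control (noise SD 0.403), with signals of 6.84 on ORF, 7.54 on shRNA and 6.35 on control, while the probe set used gave -0.07. A BIRC5 probe set gave 0.67 for ORF against control and 0.65 for shRNA against control, with signals of 8.85, 8.82 and 8.17, against -0.02 and 0.06 for the probe set used. A dim AURKB probe set gave 0.70 for shRNA against control (signals of 6.94, 7.09 and 6.38), and a dim ECT2 probe set ending in _x_at gave 0.61 for ORF against control (signals of 7.17, 7.08 and 6.56). Which transcripts these probe sets read was not tested.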

How the results depend on the processing

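The medians of the 40 genes kept their sign under every alternative run. They ranged from -0.10 to -0.06 for ORF against control, from -0.07 to -0.03 for shRNA against control and from -0.09 to -0.005 for ORF against shRNA. With arrays scaled to equal medians instead, 30 of 40 genes were lower on ORF than on shRNA, in place of 21. Without _x_at and _s_at probe sets 30 genes remained measured, and 17 of them were below control on shRNA. KIF20A stayed between -0.70 and -0.67 for shRNA against control, and CDC25C was just under the 1.5-fold limit after quantile normalization (-0.58). Its median over probe sets was 0, which is the fixed ratio of a probe set below the floor and not a reading of the gene. Over all single-gene values, 774 stayed within 1 noise SD and 33 moved further. With the floor at the 75th percentile INCENP was no longer measured: 0 genes were at least 1.5-fold lower on ORF, 1 was on shRNA, and 0 were higher with ORF than with shRNA. At a lower fold limit (log2 ratio of 0.32), 3 genes were lower on ORF than on control and 2 were higher on ORF than on shRNA. On shRNA, INCENP, KIF20A, CDC25C and CENPF were lower than control at this limit, and 1 gene was higher. At a 2-fold limit the counts were 0 lower on ORF, 1 lower on shRNA and 0 higher on ORF than on shRNA. Shares of all genes are not given for these other limits and this other floor, so the counts have no background here. Leaving out the one array of a group removes its comparison. No paired analysis was possible because each group has 1 array and the labels give no replicate numbers. Single arrays, and signals near background for INCENP, limit these values.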

Other observations

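KIF20A and CDC25C, the 2 bright genes with the largest differences from control, are neighbours on chromosome 5 in RefSeq's gene table, with CDC23 and GFRA3 measured between them. CDC23, an APC/C subunit, read 11.30 on the array labelled ORF, 11.36 on shRNA and 11.30 on control, and GFRA3 was near the floor. A dimmer CDC23 probe set ending in _x_at read 9.81, 10.37 and 9.65. Its log2 ratio was 0.71 for shRNA against control (noise SD 0.208), so the readings of CDC23 disagree. Over the 11 other genes above the floor between KIF20A and CDC25C and within 500 kb on either side, the median log2 ratio was -0.07 for ORF against control and -0.02 for shRNA against control. EGR1, an immediate early factor that read 6.44, 5.78 and 6.82, was the 1 of these 11 at least 1.5-fold lower on shRNA, and 0 were on ORF. EGR1 was below the floor on shRNA, so its ratio of -0.89 (noise SD 0.442) depends on where the floor is set. Of the bright neighbours, HNRNPA0 read 12.44, 12.47 and 12.63, a log2 ratio of -0.19 for ORF against control (noise SD 0.0916), and FAM13B read 10.56, 10.74 and 10.77, a ratio of -0.21 (noise SD 0.114). BRD8 (11.95, 11.92 and 12.02) and HSPA9 (13.85, 13.86 and 13.87) differed by less than their noise SD in both comparisons with control.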
